A study of Mus musculus with 8 samples.

Results

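The genes described here are 50 lysosomal genes of the mouse, chosen by name from the gene names in the deposited transcript tables: cathepsins other than Ctsg, glycosidases, sulfatases, lipid hydrolases and their cofactors, lysosomal membrane proteins, the transcription factors Tfeb and Tfe3, and the vacuolar proton pump. They are 50 of 55487 genes in the tables, 13 of them belonging to the proton pump and 37 not. Of the 50, 48 reached 1 TPM (a transcript's share of all transcripts in a library, scaled for its length) in at least 2 libraries and were tested. Ctsl, which encodes cathepsin L, did not, with 0.0193 to 0.417 TPM over all 8 libraries, and neither did Scarb2, which encodes the membrane receptor LIMP-2, with 0.544 to 1.02 TPM.

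RNA was sequenced from 2 populations sorted from the bone marrow of C57BL/6J mice, each in biological duplicate from littermate controls, labelled wild type, and from mice labelled Nfil3-depleted, in which a floxed Nfil3 gene had been removed. Both populations were sorted as Lineage-, CD34-, ckit- and CD200R3+. The pre-Baso population had high staining with MAR1, an antibody to the IgE receptor alpha chain, and the basophil population had intermediate staining. The 8 libraries form 4 groups of 2: control pre-Baso, Nfil3-deficient pre-Baso, control basophils and Nfil3-deficient basophils. The Cre driver, the age of the mice and whether animals were pooled are not given in the sources used here.

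Lysosomes are acidic organelles in which hydrolases with acidic pH optima break down proteins, glycans and lipids. The vacuolar ATPase (V-ATPase) acidifies them: its cytosolic V1 sector hydrolyses ATP, and its membrane V0 sector moves protons into the lumen. TFEB and TFE3 are basic helix-loop-helix factors known to drive many lysosomal genes through sites built on the letters CACGTG. Basophils store their granule contents in acidic, proteoglycan-rich compartments related to lysosomes, and NFIL3 is a basic leucine zipper transcription factor active in several blood lineages.

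The libraries held 271.7 to 398 megabases of sequence assigned to transcripts, of which the 50 genes took 1.14 to 1.56 megabases. Nfil3 itself had 6.61 and 7.65 TPM in control pre-Baso and 20.5 and 22.5 in control basophils, against 0 and 0.624 in deficient pre-Baso and 0.853 and 1.32 in deficient basophils. Mcpt8, the basophil granule protease gene, was also almost lost, with 1.98 to 6.04 TPM in the 4 deficient libraries against 969 to 7888 in the controls, so the loss of Nfil3 and that of Mcpt8 cannot be told apart in any genotype comparison. Fcer1a, which encodes the chain that MAR1 binds, had 546.7 to 959.8 TPM in pre-Baso and 159.9 to 424.1 in basophils. The first library of each basophil group stood apart from the second. The summed level of 16 monocyte and macrophage markers was 866.9 and 782.8 TPM in the first control and first deficient basophil library against 322.1 and 363.9 in the second ones and 151.8 to 247.5 in pre-Baso. Several lysosomal genes moved with these markers, so counts, calls and changes that moved by over 1.5 times are also given without both first libraries for the members described. Leaving both out left a single library in each basophil group, and leaving out any library left a single one in its group. The spread was then estimated from fewer duplicates, so a call could be lost with little change in level. In sorted bulk samples, fewer cells of a type and less RNA per cell cannot be told apart.

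The letters CACGTG, the core that TFEB and TFE3 bind, stood within the 250 bases before the start in 12 of 51 RefSeq promoters (build GRCm38.p6) of the 43 genes that had an entry, against 6.02% of 32851 promoters of all genes. The longer TCACGTGA, which contains the core, was found in 5 of the 51 promoters, in those of Atp6v1a, Ctsa, Ctsd, Gla and Mcoln1, against 0.785% of all promoters. Both read the same on either strand. The letters TTACGTAA and TTATGTAA (both strands), to which NFIL3 is known to bind, were in none of the 43, against 0.113% and 0.819% of all promoters. Atp6v1h, Ctse, Ctsb, Atp6v1c1, Atp6v1b2, Asah1 and Ctsh had no entry. A match is a description of the sequence and not a measured site. The stretches below are shown because they carry the core in genes whose levels are described next, 5′ to 3′ on the gene's strand, with the core or its longer form in capitals. Distances are counted from the first base of CACGTG to the RefSeq start. The stretches of Ctsd, Ctsa, Mcoln1 and Atp6v1a lie inside the gene as annotated in the deposited transcripts, which begins upstream of that start. Those of Gla, Glb1 and Atp6v0b lie before the annotated gene.
Ctsd, chr7:142387908-142387937, minus strand, 98 bases before the start: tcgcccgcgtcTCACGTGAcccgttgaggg
Ctsa, chr2:164833749-164833778, plus strand, 12 bases before the start: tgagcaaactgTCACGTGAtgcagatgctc
Gla, chrX:134601182-134601211, minus strand, 194 bases before the start: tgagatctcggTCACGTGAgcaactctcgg
Mcoln1, chr8:3500462-3500491, plus strand, 45 bases before the start: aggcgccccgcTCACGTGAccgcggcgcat
Atp6v1a, chr16:44139373-44139402, minus strand, 131 bases before the start: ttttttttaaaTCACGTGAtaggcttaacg
Glb1, chr9:114401018-114401047, plus strand, 48 bases before the start: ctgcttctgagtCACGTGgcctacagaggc
Atp6v0b, chr4:117887334-117887579, minus strand, 36 and 18 bases before the start: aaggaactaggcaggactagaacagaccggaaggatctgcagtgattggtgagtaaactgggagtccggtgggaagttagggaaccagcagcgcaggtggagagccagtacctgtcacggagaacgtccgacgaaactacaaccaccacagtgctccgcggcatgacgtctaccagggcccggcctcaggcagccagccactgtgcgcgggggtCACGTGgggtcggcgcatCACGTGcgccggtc
Members with the core changed in both directions in controls, where 2 of them, Ctsd and Atp6v0b, were called higher. Lamp1, with CACGTG 61, 45, 28 and 15 bases before its RefSeq start, had a log2 change of -0.33 there. Gla was at -0.53, and Npc2, with no CACGTG, rose by 0.64. The median with and without the core was 0.14 and 0.27 in controls, and 0.44 and 0.30 in deficient mice. The 201 bases before the annotated start of Arsb, the member that fell the most, hold no CACGTG and are given as an example without it.
Arsb, chr13:93771429-93771629, plus strand: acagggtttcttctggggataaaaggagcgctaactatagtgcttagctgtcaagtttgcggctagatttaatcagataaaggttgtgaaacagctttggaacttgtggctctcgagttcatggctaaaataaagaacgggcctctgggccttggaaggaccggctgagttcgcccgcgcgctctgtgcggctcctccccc

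Members were called between the 2 populations and not between the genotypes, and few of them were. The 50 genes together took 0.539% and 0.54% of the protein-coding TPM in control pre-Baso and 0.813% and 0.735% in control basophils. In deficient mice the shares were 0.526% and 0.533% in pre-Baso and 0.772% and 0.653% in basophils. In controls, 6 of the 48 tested genes rose from pre-Baso to basophils and 2 fell, by limma with Benjamini-Hochberg adjustment over 12511 genes at an adjusted p under 0.05. This is 16.7% of the members, against 22.6% of all tested genes called in that comparison (12.6% higher, 10% lower), so their share was not above the background. In Nfil3-deficient mice 4 rose and 0 fell, 8.33% of the members against a background of 10.9% (6.79% higher, 4.11% lower). The unadjusted p was under 0.05 for 15 members in controls (31.2%, against 36.2% of all genes) and 14 in deficient mice (29.2%, against 28.1%). The counts depended on single libraries: in controls 5 members were called without pre-Baso library 1 or basophil library 1 and 13 without basophil library 2, and in deficient mice 0, 1 and 2 without pre-Baso library 1, pre-Baso library 2 and basophil library 1 of those mice.

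Most members leaned upwards without being called when all 8 libraries were fitted. The median log2 change of the 48 genes was 0.29 in controls, against 0.08 for all genes tested, and 37 of 48 changes were positive, against 56.5% of all genes. In deficient mice the median was 0.33 against 0.10, with again 37 positive, against 59.6% of all genes. Libraries of the populations did not overlap for 25 members that were higher and 4 that were lower in control basophils, where 36.4% and 26.3% of all genes did so. In deficient mice these counts were 26 and 3, against 36.6% and 21.7%. Rescaling to the median ratio of all genes brought the all-gene median to 0.01 in both genotypes, and the members' medians were then 0.20 and 0.22. Under that scaling 7 members rose and 2 fell in controls, and 5 rose and 1 fell in deficient mice, beside a split of 1537 higher and 1742 lower genes in controls and 888 higher and 1029 lower genes in deficient mice. That split over all genes was 1576 higher and 1256 lower in controls and 849 and 514 in deficient mice on the deposited scale. Without both first basophil libraries, 4 members were called in controls (8.33%, against 8.25% of all genes) and 0 in deficient mice, with medians of 0.14 and 0.23. That fit held a single library in each basophil group, so fewer calls in it need not mean smaller changes. The control changes of Ctsb, Ctsc, Ctsh, Ctsz, Hexa, Glb1, Gm2a and Mcoln1 turned negative without those libraries, and no negative control change turned positive. Marker sums of other cells also differed between the populations: 10 neutrophil markers summed to 791 to 1230 TPM in pre-Baso and 1349 to 2525 in basophils, and 7 erythroid markers to 29.5 to 114.1 and 129 to 167.5. The 7 granulocyte progenitor markers summed to 1214 to 2273 TPM in pre-Baso and 147.8 to 752.3 in basophils, and the part of these cells in the members' changes was not tested.

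The 2 aspartic cathepsins, Ctsd and Ctse, rose in both genotypes. Ctsd encodes cathepsin D, the main aspartic protease of lysosomes, and was the most abundant of the 50 genes by median TPM. Its level was 113.5 and 130.6 TPM in control pre-Baso and 279.6 and 291.5 in control basophils. In deficient mice it was 113 and 109.4 TPM in pre-Baso and 218 and 211 in basophils. Every basophil library was above every pre-Baso library, and the control basophils were above the deficient ones. The means of the controls were 122 ± 12.1 and 285.5 ± 8.43 TPM (SD, n = 2), a ratio of 2.34. The log2 change of Ctsd was 1.22 ± 0.12 (SE) in controls, with a limma adjusted p of 0.000667, and 0.94 ± 0.12 in deficient mice, with an adjusted p of 0.00577.

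Ctse encodes cathepsin E, an endosomal aspartic protease of blood and epithelial cells. It had 4.16 and 4.31 TPM in control pre-Baso, 12.98 and 12.7 in control basophils, 3.66 and 4.34 in deficient pre-Baso and 7.44 and 10.8 in deficient basophils. The populations did not overlap in either genotype, and the 2 deficient basophil libraries lay apart from each other and below both controls. Its log2 change was 1.40 ± 0.20 in controls (limma adjusted p = 0.0023) and 1.003 ± 0.20 in deficient mice (adjusted p = 0.0187). The controls' calls for Ctsd and Ctse were kept when any single library, or both first basophil libraries, were left out, with log2 changes of 1.25 and 1.39 in the last case. In deficient mice both calls were lost without both first basophil libraries, while the log2 changes were then 0.92 for Ctsd and 1.25 for Ctse. Both calls were also lost without the first pre-Baso library of those mice. The call for Ctse was lost too without the second pre-Baso or the second basophil library, with adjusted p-values up to 0.128 over the single libraries left out, and with no filter on low values or only the groups compared.

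None of the 6 tested genes listed with the cysteine cathepsins, among them the legumain gene Lgmn, was called in either genotype. Ctsz, which encodes the carboxypeptidase cathepsin Z, was the most abundant of them by median TPM, with 23.3 to 40.2 TPM over the 8 libraries. Ctsc encodes dipeptidyl peptidase 1, the activator of granule serine proteases, and ranged from 4.31 to 8.97 TPM, with log2 changes of 0.17 ± 0.28 in controls and -0.03 ± 0.28 in deficient mice, the latter -0.43 without both first basophil libraries. Ctsb, Ctsh, Ctss and Lgmn varied more between the duplicate basophil libraries than between the populations and are described with the first basophil libraries. Of the serine peptidases, Ctsa encodes cathepsin A, the protective protein of beta-galactosidase and neuraminidase. It had 12.3 and 15.7 TPM in control pre-Baso and 29.8 and 18.9 in control basophils, with a log2 change of 0.73 ± 0.28 (limma adjusted p = 0.0999). This change was 0.41 without both first basophil libraries, and it was called with a block for the library number within each population (adjusted p = 0.0393). Ctsa overlaps Pltp on the opposite strand, and the quantification named no strand option. Pltp was listed at 3.20 and 4.25 TPM in the first basophil libraries, at 0.516 in the second deficient one and at 0 in the other 5 libraries. Tpp1, which encodes tripeptidyl peptidase 1, ranged from 3.55 to 5.71 TPM and was not called.

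**Figure D1:**
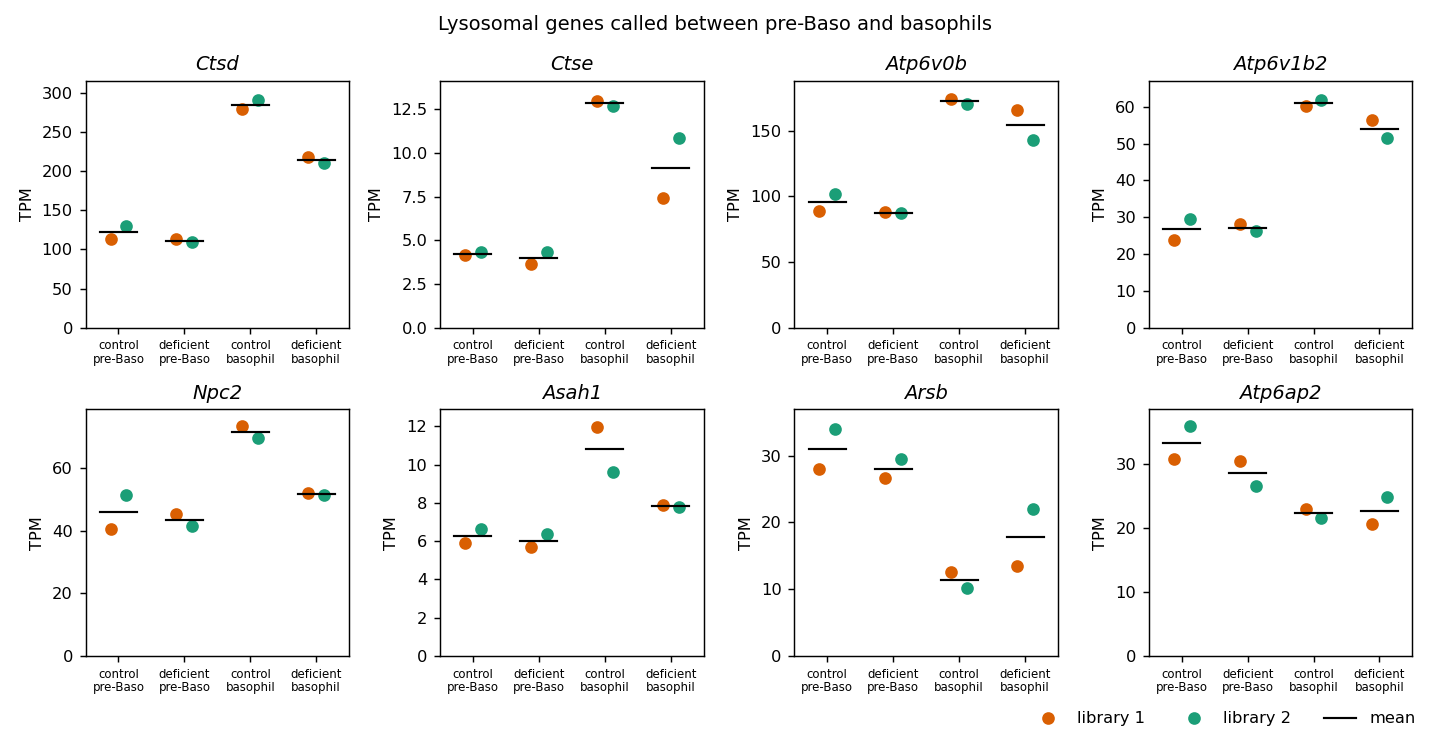
Levels of the 8 lysosomal genes called between pre-Baso and basophils in at least 1 genotype, in TPM (y axis from 0) for each group (x axis); each point is a library, with the 2 libraries of a group in different colours, and the line is their mean. Ctsd, Ctse, Atp6v0b and Atp6v1b2 were higher in every basophil library than in every pre-Baso library, Npc2 and Asah1 lay closer together in deficient mice, and Arsb and Atp6ap2 were lower in basophils.

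No glycosidase was called. Man2b1, which encodes lysosomal alpha-mannosidase, was the most abundant of the 9 by median TPM, with 47.9 and 57.1 TPM in control pre-Baso, 75.9 and 68.5 in control basophils, 41.7 and 50.4 in deficient pre-Baso and 59.6 and 71.5 in deficient basophils. Its basophil libraries were above its pre-Baso libraries in both genotypes, with log2 changes of 0.46 ± 0.17 (limma adjusted p = 0.092) and 0.50 ± 0.17 (adjusted p = 0.101). Neu1 encodes the lysosomal sialidase and had 7.44 and 7.60 TPM in control pre-Baso, 9.41 and 8.82 in control basophils, 8.33 and 7.01 in deficient pre-Baso and 11.2 and 11.7 in deficient basophils. Its log2 change was 0.25 ± 0.16 in controls (limma adjusted p = 0.301) and 0.52 ± 0.16 in deficient mice (adjusted p = 0.0695). Manba (beta-mannosidase) and Fuca1 (alpha-fucosidase) did not overlap between populations in either genotype and were higher in basophils by 1.22 to 1.56 times, without being called.

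Gla, which encodes alpha-galactosidase A, leaned the other way. It was low, with 1.32 and 1.55 TPM in control pre-Baso and 0.582 and 0.785 in control basophils, and its log2 change of -0.53 ± 0.22 was not called (limma adjusted p = 0.121). Hexa (beta-hexosaminidase alpha chain, whose enzyme activity is a usual readout of basophil and mast cell degranulation), Glb1 (beta-galactosidase), Gusb (beta-glucuronidase) and Gaa (acid alpha-glucosidase) had log2 changes between -0.22 and 0.11 in controls, where the lowest, that of Gusb, was -0.40 without both first basophil libraries. Gaa was at -0.15 ± 0.18 in controls and 0.44 ± 0.18 in deficient mice, and the difference of 0.59 ± 0.26 was not called (adjusted p = 0.897 for the interaction by limma).

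Arsb had the largest fall of the 48 genes in controls. It encodes arylsulfatase B, which removes sulfate from the N-acetylgalactosamine of dermatan and chondroitin sulfate. Arsb had 28.03 and 34.0 TPM in control pre-Baso and 12.6 and 10.2 in control basophils, and 26.6 and 29.4 TPM in deficient pre-Baso and 13.5 and 22.0 in deficient basophils. All 4 basophil libraries were below all 4 pre-Baso libraries, with the second deficient basophil library the highest of them. The control means were 31.0 ± 4.21 and 11.4 ± 1.67 TPM (SD, n = 2), a ratio of 2.72 in favour of pre-Baso. The log2 change of Arsb was -1.37 ± 0.24 in controls (limma adjusted p = 0.00553), and this call was kept under every alternative tried, with changes between -1.51 and -1.13. In deficient mice the change was -0.67 ± 0.24, which was not called (adjusted p = 0.11), except after rescaling to the median ratio of all genes. The difference between the genotypes, 0.70 ± 0.34, was not called (adjusted p = 0.918 for the interaction). Without both first basophil libraries these values were -0.33 and 1.18, again not called. One transcript carried 98.3% or more of the Arsb TPM in every library.

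Arsa, the other sulfatase among the 50, encodes arylsulfatase A, which acts on sulfatide. It had 1.55 and 2.65 TPM in control pre-Baso and 4.48 and 3.78 in control basophils, a log2 change of 0.75 ± 0.25 (limma adjusted p = 0.0614), so the 2 sulfatases moved apart in controls, where 1 of the 2 was called. Further lysosomal sulfatases come from a list of 30 other lysosomal enzymes, whose calls were not followed with libraries left out. Of these, Sgsh (heparan N-sulfatase) had 0.912 and 1.26 TPM in control pre-Baso and 5.25 and 6.97 in control basophils, and rose by 1.76 ± 0.19 on the log2 scale (limma adjusted p = 0.000815) and by 1.23 ± 0.19 in deficient mice (adjusted p = 0.00904). Ids (iduronate sulfatase) rose by 0.87 ± 0.20 in controls (adjusted p = 0.0175) and by 0.78 ± 0.20 in deficient mice (adjusted p = 0.0443). Galns (N-acetylgalactosamine sulfatase, named after its values were seen) fell by 0.63 on the log2 scale in controls (adjusted p = 0.0379), from 15.3 and 16.0 to 8.35 and 11.4 TPM. As background, Sgsh and Ids act on heparan sulfate, whereas Arsb and Galns act on galactosamine-containing chondroitin sulfate and Galns also on keratan sulfate.

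**Figure D2:**
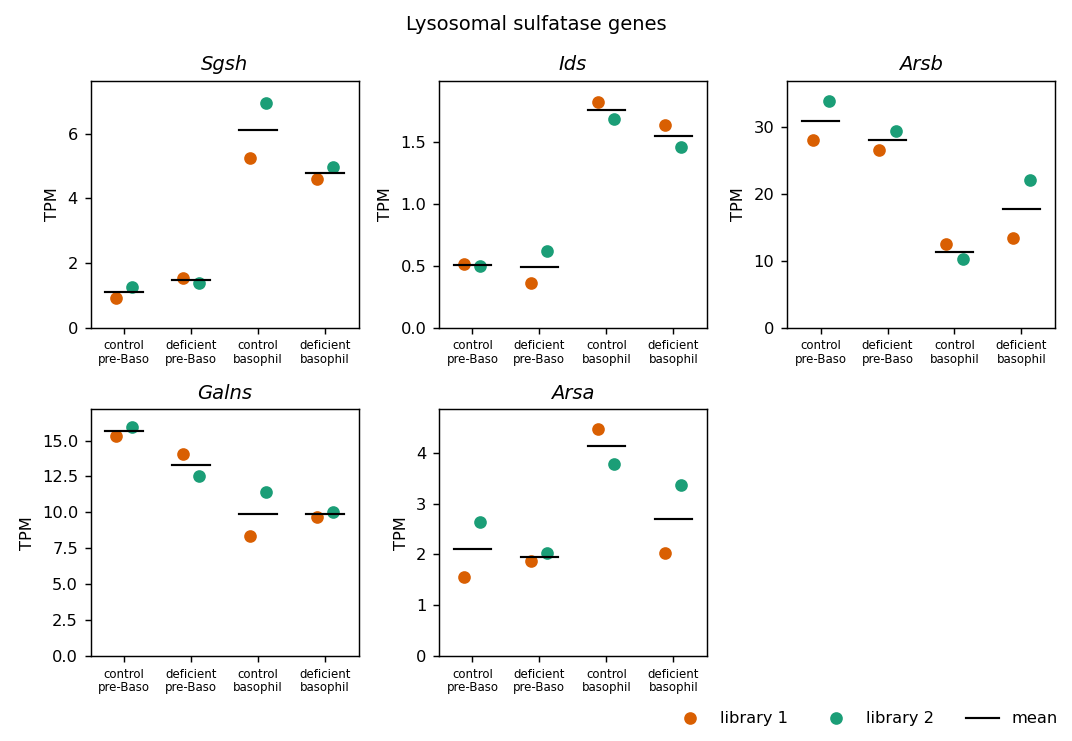
Levels of 5 lysosomal sulfatase genes in TPM (y axis from 0) by group (x axis), with each library as a point and the group mean as a line. Sgsh and Ids lay above pre-Baso in every basophil library, and Arsb and Galns lay below; Arsa was higher in control basophils and overlapped in deficient mice.

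Among the lipid hydrolases and their helpers, Asah1 and Npc2 rose in controls. Asah1 encodes acid ceramidase, and had 5.90 and 6.62 TPM in control pre-Baso, 11.95 and 9.63 in control basophils, 5.68 and 6.37 in deficient pre-Baso and 7.88 and 7.80 in deficient basophils. Npc2 encodes the soluble cholesterol carrier of the lysosome, and had 40.5 and 51.5 TPM in control pre-Baso, 73.5 and 69.9 in control basophils, 45.6 and 41.5 in deficient pre-Baso and 52.1 and 51.7 in deficient basophils. Both genes were higher in all basophil libraries than in the pre-Baso libraries of the same genotype. Their log2 changes in controls were 0.69 ± 0.17 for Asah1 (limma adjusted p = 0.0215) and 0.64 ± 0.16 for Npc2 (adjusted p = 0.0217). In deficient mice they were 0.33 ± 0.17 and 0.25 ± 0.16, not called (adjusted p = 0.242 and 0.336), and the differences between genotypes were not called either (adjusted p = 0.952 and 0.931 for the interaction).

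The calls for Asah1 and Npc2 were less stable than those for Ctsd and Ctse. Asah1 was no longer called without either control pre-Baso library or without control basophil library 1, with adjusted p-values up to 0.137. Npc2 was no longer called without the first control pre-Baso library or either control basophil library (adjusted p up to 0.108). Both were lost with no filter on low values, with only the groups compared, and without the 2 first basophil libraries together, with log2 changes of 0.55 for Asah1 (adjusted p = 0.182) and 0.60 for Npc2 (adjusted p = 0.162). The block within each population also ended the call of Npc2 (adjusted p = 0.0586). Gm2a, which encodes the GM2 activator, was level at 39.3 to 54.8 TPM. Grn (progranulin) had 10.9 and 15.3 TPM in control pre-Baso, 24.5 and 17.04 in control basophils, 11.4 and 11.8 in deficient pre-Baso and 21.7 and 19.5 in deficient basophils. Its libraries did not overlap between populations, and its log2 changes of 0.62 ± 0.22 and 0.77 ± 0.22 just missed the threshold (limma adjusted p = 0.0752 and 0.0582), the first being 0.37 without both first basophil libraries. Grn was called in both genotypes after rescaling to protein-coding genes and with a filter at 5 TPM. In deficient mice it was also called with FPKM, median-ratio scaling and robust moderation. With other pseudocounts, no filter or a replicate block it was not called in either genotype. Smpd1 (acid sphingomyelinase) and Ppt1 (palmitoyl-protein thioesterase, which overlaps Cap1 on the opposite strand) had changes of -0.06 to 0.30 and were not called, the highest, that of Ppt1 in controls, being 0.19 without both first basophil libraries.

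The membrane proteins and transcription factors gave no calls. Lamp1 and Lamp2, the major glycoproteins of the lysosomal membrane, ranged from 27.7 to 48.9 and from 10.8 to 12.8 TPM. Their log2 changes were -0.33 ± 0.23 and -0.04 ± 0.16 in controls and -0.27 ± 0.23 and -0.05 ± 0.16 in deficient mice, all below 0 while the members' median was above it, and those of Lamp1 were -0.65 and -0.40 without both first basophil libraries. Mcoln1, the calcium channel TRPML1, ranged from 3.28 to 6.10 TPM. Tfeb had 0.771 and 0.849 TPM in control pre-Baso and 1.19 and 2.37 in control basophils, and 1.0495 and 1.19 TPM in deficient pre-Baso and 3.45 and 1.70 in deficient basophils. Its log2 changes of 0.59 ± 0.29 and 0.71 ± 0.29 were not called (limma adjusted p = 0.19 and 0.158) and were 0.90 and 0.35 without both first basophil libraries, and the scale of log2(TPM + 1) understates changes at such levels. Tfe3 ranged from 0.959 to 2.504 TPM and overlapped between the deficient populations.

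Of the 13 V-ATPase genes, Atp6v0b and Atp6v1b2 rose in both genotypes and Atp6ap2 fell in controls. The summed level of all 13 was 480.8 to 594.4 TPM in pre-Baso and 610.5 to 708.8 in basophils. Atp6v0b encodes a proteolipid subunit of the V0 rotor. It had 89.3 and 102 TPM in control pre-Baso, 174.7 and 170.9 in control basophils, 88.2 and 87.1 in deficient pre-Baso and 166.1 and 143.2 in deficient basophils. No basophil library overlapped a pre-Baso library. The log2 change of Atp6v0b was 0.85 ± 0.14 in controls (limma adjusted p = 0.00396) and 0.81 ± 0.14 in deficient mice (adjusted p = 0.012).

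Atp6v1b2 encodes the B2 subunit of the V1 head. It had 23.9 and 29.5 TPM in control pre-Baso, 60.2 and 62.0 in control basophils, 28.1 and 26.3 in deficient pre-Baso and 56.3 and 51.6 in deficient basophils. Again the populations were far apart in both genotypes, with mean ratios of 2.29 in controls and 1.98 in deficient mice. The log2 change of Atp6v1b2 was 1.17 ± 0.15 (limma adjusted p = 0.00184) and 0.96 ± 0.15 (adjusted p = 0.0101). Without both first basophil libraries it remained called in controls, at 1.19, while Atp6v0b, at 0.83, narrowly was not. In deficient mice neither was called then, with log2 changes of 0.90 for Atp6v1b2 and 0.70 for Atp6v0b. Nor were they called there without either deficient pre-Baso library or the first deficient basophil library.

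No other V0 or V1 subunit gene among the 13 was called. The V1 catalytic subunit gene Atp6v1a, whose product alternates with B2 in the V1 head, was among the lowest at 1.96 to 3.31 TPM, with log2 changes of -0.21 ± 0.20 and -0.19 ± 0.20, the first being -0.35 without both first basophil libraries. The stalk subunit gene Atp6v1f ranged from 105.9 to 150 TPM and the V0 gene Atp6v0e from 91.3 to 126.8, neither called. Atp6v0c, the other rotor proteolipid, ranged from 42.5 to 65.2 TPM and was not called, but its value is uncertain, since the pseudogenes Atp6v0c-ps1 and Atp6v0c-ps2 were listed at 4.67 to 7.45 and 26.8 to 41.4 TPM and the counting could split reads between near-identical copies. Atp6v0d1, which links the sectors, had 27.0 and 35.0 TPM in control pre-Baso and 47.8 and 42.6 in control basophils (log2 change 0.54 ± 0.19, limma adjusted p = 0.08). Atp6v1c1, Atp6v1d and Atp6v1h had changes between -0.17 and 0.72 over both genotypes and no calls, and the highest, that of Atp6v1d in deficient mice, was 0.30 without both first basophil libraries. Levels of different subunits are compared per unit of transcript length, and the share of the leading transcript varied between libraries from 22.6% to 92.1% for Atp6v1e1 and from 24.7% to 82.2% for Atp6v1d.

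The 2 accessory subunits moved apart in controls. Atp6ap2, the (pro)renin receptor, had 30.8 and 36.0 TPM in control pre-Baso, 23.0 and 21.6 in control basophils, 30.6 and 26.7 in deficient pre-Baso and 20.6 and 24.8 in deficient basophils. It fell by 0.56 on the log2 scale in controls, with a limma adjusted p of 0.045, and this call did not survive leaving out any 1 of the 8 libraries (adjusted p from 0.0559 to 0.168) or the block within each population (0.0974). Atp6ap1, the other accessory subunit gene, had 18.3 and 22.0 TPM in control pre-Baso and 26.4 and 33.7 in control basophils, a log2 change of 0.55 ± 0.17 that was just short of the threshold (adjusted p = 0.0541).

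**Figure D3:**
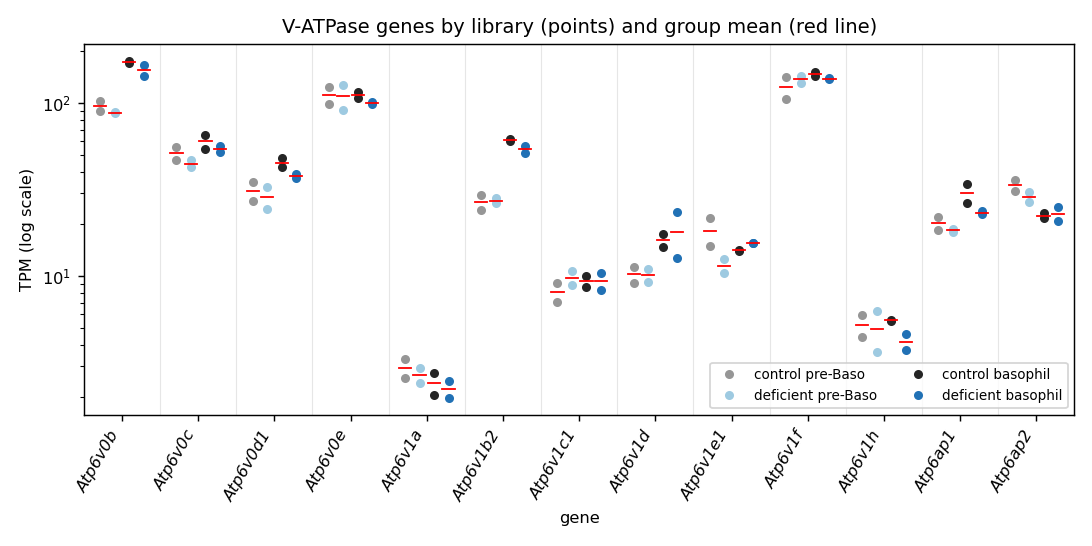
Levels of the 13 V-ATPase genes in TPM on a log scale (y axis) for each library (points, coloured by group) with the group mean as a red line; genes are on the x axis. Atp6v0b and Atp6v1b2 were separated by population in both genotypes, as were Atp6v0d1, Atp6v1d, Atp6ap1 and, in the downward direction, Atp6ap2. Atp6v0e, Atp6v1a, Atp6v1c1 and Atp6v1h overlapped in both genotypes, and Atp6v1a and Atp6v1h were the lowest.

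**Figure D4:**
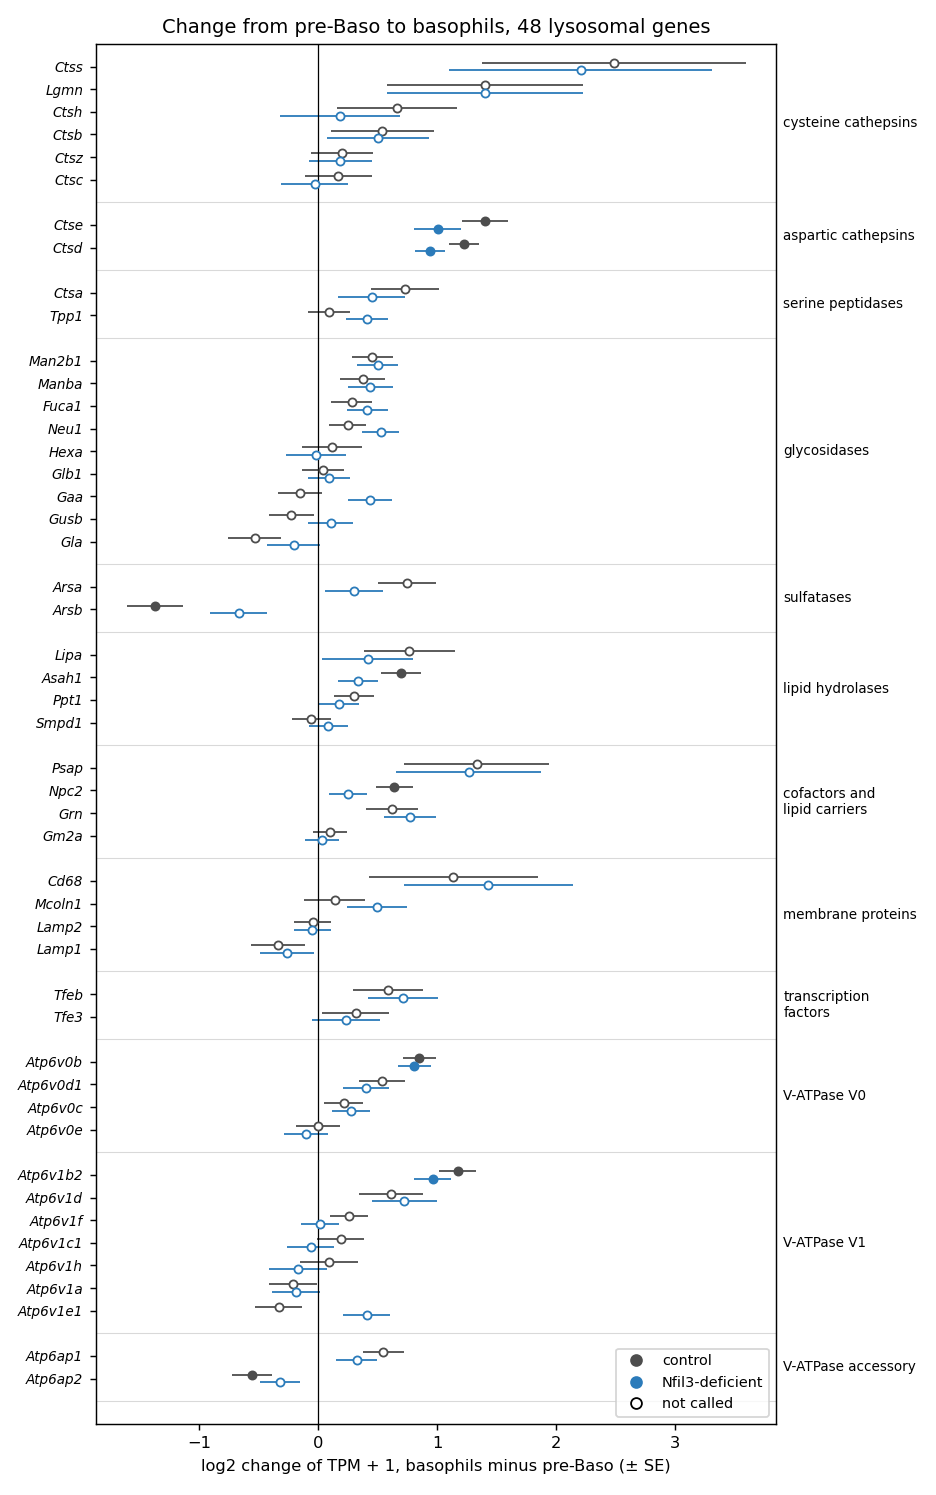
Log2 change of TPM + 1 from pre-Baso to basophils (x axis) with its standard error for each of the 48 tested genes (y axis, by role), in controls (grey) and Nfil3-deficient mice (blue); filled points were called at an adjusted p under 0.05. Ctss, Lgmn, Psap and Cd68 had the widest errors and were not called.

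The changes with the widest errors, those of Ctss, Lgmn, Psap and Cd68, rested on the first library of each basophil group. Ctss encodes cathepsin S, the protease of antigen-presenting cells that trims the invariant chain. It had 1.21 and 1.60 TPM in control pre-Baso and 1.36 and 3.504 in deficient pre-Baso, then 43.4 and 3.05 in the first and second control basophil library and 37.2 and 4.91 in the deficient ones. Its log2 changes of 2.48 ± 1.11 and 2.20 ± 1.11 were not called (limma adjusted p = 0.145 and 0.236), and without both first libraries they were 0.76 and 0.86 (adjusted p = 0.287 and 0.31). With the library number as a block within each population, an alternative added after the data were seen, Ctss, Lgmn, Psap and Cd68 were called in both genotypes, Ctss at adjusted p-values of 0.00257 and 0.0132. Lgmn (legumain, an asparaginyl endopeptidase) had 5.98 and 0.673 TPM in control basophils and 7.39 and 0.437 in deficient ones, against 0.227 to 0.37 in pre-Baso. Psap, the precursor of the saposins that assist sphingolipid hydrolases, had 85.5 and 20.6 TPM in control basophils and 62.7 and 24.9 in deficient ones, against 13.7 to 19.1 in pre-Baso. Cd68, a macrophage-associated LAMP-family membrane protein, had 14.2 and 2.59 TPM in control basophils and 13.3 and 2.83 in deficient ones, against 1.499 to 2.48 in pre-Baso.

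In all, 5 of the 48 genes (Ctss, Lgmn, Cd68, Psap and Ctsh) were at least 2 times higher in the first than in the second basophil library of both genotypes, and 0 were as much lower. A further 2, Ctsb and Lipa, which encode cathepsin B and lysosomal acid lipase, were 2.94 and 2.55 times higher in controls and 1.83 and 1.92 times higher in deficient mice. Any excess of the first library in both genotypes was seen for 26 genes and any deficit for 4. This grouping was made after the values were seen and was not tested. Between the duplicate pre-Baso libraries, the ratios of these 7 genes lay between 0.389 and 1.49.

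Markers of other cell types differed in the same 2 libraries. Of the 16 monocyte and macrophage markers, 13 were higher in the first basophil library of both genotypes. The most abundant, Lyz2, had 678.8 and 637.2 TPM in the first libraries against 260.8 and 302.5 in the second. C1qa had 27.8 and 14.95 TPM against 2.08 and 2.88, and Csf1r had 7.08 and 7.72 against 1.36 and 2.06, while Cd14 and Fcgr1 stayed under 1 TPM in every library. The dendritic cell list, with the MHC class II genes Cd74, H2-Aa and H2-Ab1, summed to 667.2 and 609.7 TPM in the first libraries and to 57.8 and 74.6 in the second, and 5 of its 11 genes were higher in both first libraries. Cd74 alone had 332.5 and 302.3 TPM in the first libraries. Xcr1, Clec9a, Flt3, Zbtb46, Siglech, Ccr9 and Ccr7 of that list stayed under 1 TPM in every library. Of 10 neutrophil markers, 9 were higher in both, with sums of 2525 and 2233 TPM against 1440 and 1349. Eosinophil markers summed to 2665 TPM in the first control library and to 193.6 in the first deficient one, against 35.4 and 31.0 in the second libraries, and 7 of 9 were higher in both. The 12 basophil markers summed to 6769 and 8240 TPM in the first libraries against 8873 and 12265 in the second, and 2 of them were higher in both first libraries. Most of that gap was Prss34, a basophil protease gene with 2667 and 5643 TPM against 4617 and 9494, while Fcer1a was higher in the first, with 424.1 and 245.2 TPM against 279.9 and 159.9. The part of these cells or of free RNA in the levels of Ctss, Lgmn, Cd68 and Psap was not tested. The levels of Ctsd, Ctse, Atp6v1b2 and Arsb in the second control basophil library, 291.5, 12.7, 62.0 and 10.2 TPM, were close to those in the first. In the first and second deficient basophil library, Ctse had 7.44 and 10.8 TPM and Arsb 13.5 and 22.0. Ctsd had 218 and 211 TPM there and Atp6v1b2 56.3 and 51.6. The part of other cells in these levels was not tested either.

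**Figure D5:**
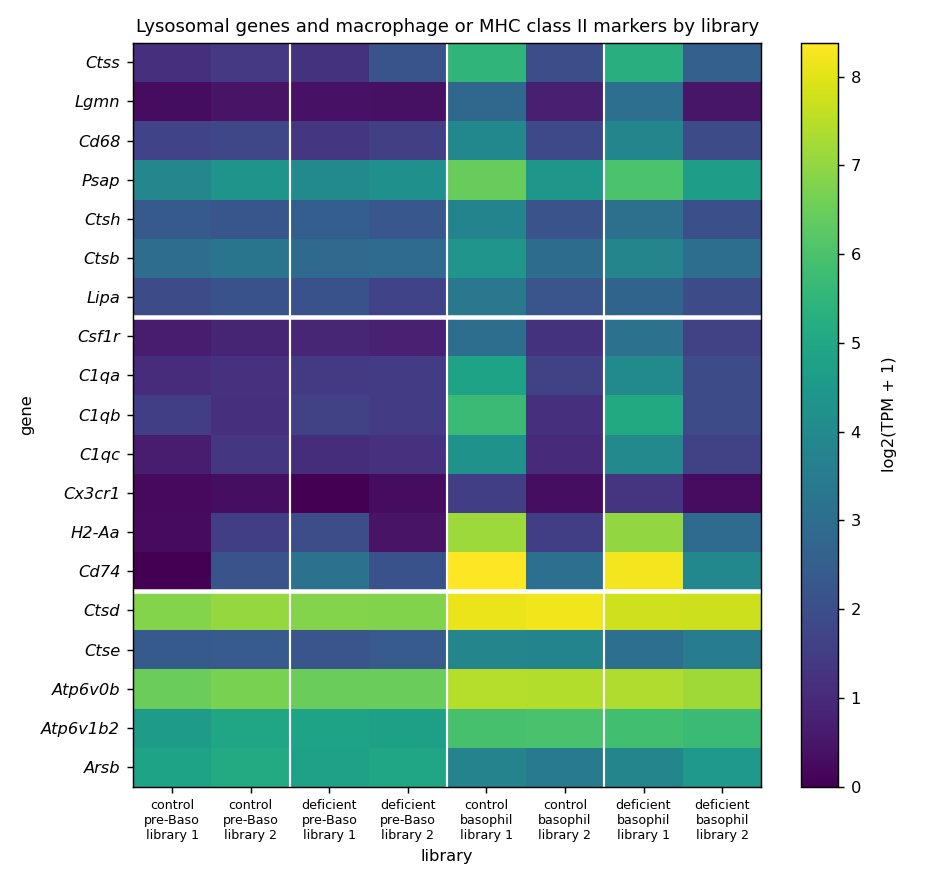
Log2(TPM + 1) (colour) of 7 lysosomal genes that were higher in the first basophil libraries, of 7 macrophage or MHC class II markers, and of 5 called lysosomal genes (y axis), in each of the 8 libraries (x axis). The upper and middle blocks were bright in the first basophil library of each genotype, whereas in the lower block Arsb and Ctse were lower in the first than in the second deficient basophil library and the other 3 differed little.

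Outside the 50 genes, 104 other genes of the lysosomal pathway were listed, of which 81 were tested. The calls of individual genes among them were not followed with libraries left out or under the other alternatives, so their stability is not known. In controls 11 rose and 4 fell, and in deficient mice 11 rose and 0 fell, which is 18.5% and 13.6% against the backgrounds of 22.6% and 10.9%. Their median log2 changes were 0.23 and 0.28. The 21 tested genes of other lysosomal membrane proteins and transporters were all positive in controls, with 5 called, and 18 of 21 were positive in deficient mice, with 6 called. Atp13a2, a lysosomal polyamine exporter, had 4.4998 and 5.19 TPM in control pre-Baso and 10.9 and 9.50 in control basophils, and rose by 0.94 ± 0.16 (limma adjusted p = 0.00585) and 1.14 ± 0.16 in deficient mice (adjusted p = 0.00769). Litaf rose by 0.81 ± 0.16 (adjusted p = 0.00858) and 1.22 ± 0.16 (adjusted p = 0.00508). Cln3, the Batten disease membrane protein, rose by 1.32 ± 0.31 (adjusted p = 0.0186) and 1.30 ± 0.31 (adjusted p = 0.035). Laptm4a and Npc1 were also called in controls, and Laptm5, Slc36a1 and Npc1 in deficient mice, Npc1, the membrane partner of NPC2, being named after its values were seen.

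Among the 24 tested other lysosomal enzymes, Aga, which encodes aspartylglucosaminidase, fell in controls by 1.06 on the log2 scale (limma adjusted p = 0.00825), from 11.1 and 13.7 to 5.22 and 5.57 TPM. Cst7 encodes cystatin F, an inhibitor of cathepsin C and other cysteine cathepsins. It had 148.4 and 182.7 TPM in control pre-Baso and 95.8 and 90.4 in control basophils, and 170.1 and 139.9 TPM in deficient pre-Baso and 93.1 and 111.3 in deficient basophils. Cst7 fell by 0.82 on the log2 scale in controls (adjusted p = 0.0108), while its change of -0.59 ± 0.17 in deficient mice was not called (adjusted p = 0.0567). Of 9 other tested V-ATPase genes, the assembly factor gene Tmem199 fell by 0.88 in controls (adjusted p = 0.02), and Rnasek, an accessory subunit, was called higher there (2.23 ± 0.68, adjusted p = 0.0473) on control pre-Baso values of 13.7 and 61.1 TPM that differed widely. Of the genes that control TFEB or sense nutrients, 16 were tested. Flcn (folliculin) rose by 0.82 ± 0.21 in controls (adjusted p = 0.0253), as did Usf2 by 0.84 ± 0.23 (adjusted p = 0.0306), and Usf1 was called higher in deficient mice (0.97 ± 0.21, adjusted p = 0.0249).

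Members with and without CACGTG before their RefSeq start had overlapping ranges of change, -0.53 to 1.40 with it and -1.37 to 2.48 without it in controls. The upper ends were those of Lgmn and Ctss, whose changes were 0.37 and 0.76 without both first basophil libraries. The 11 tested genes with the core had a median log2 change of 0.14 in controls and the 30 without it 0.27. In deficient mice the medians were 0.44 and 0.30. Of the genes with the core, 2 were called in each genotype, Ctsd and Atp6v0b, and these values are a description without a test.

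No member was called between the genotypes by limma. In pre-Baso the count was 0 against 0.0639% of all genes, and in basophils 0 against 0.056%. The unadjusted p was under 0.05 for 1 member in pre-Baso (2.08%, against 4.38% of all genes) and for 5 in basophils (10.4%, against 8.51%). For the mean effect over both populations 0 were called against 0.0879%, with 3 at an unadjusted p under 0.05, and for the difference of the effect between populations 0 members were called against 0% of all genes, with 1 at an unadjusted p under 0.05. The smallest adjusted p of a member was 1 in pre-Baso and 0.374 in basophils. Standard errors of these log2 differences had a median of 0.20 and a range of 0.12 to 1.11, so a difference that missed the threshold does not mean equal levels in duplicates.

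The median log2 difference of the members was -0.07 in pre-Baso and -0.09 in basophils, with 10 and 18 of 48 positive, against medians of -0.04 and -0.01 and shares positive of 43.2% and 47.9% for all genes tested. The direction of both medians rested on single libraries: they ranged from -0.20 to 0.04 and from -0.22 to 0.06 when 1 library was left out, turning positive without control pre-Baso library 2 and without control basophil library 1. Deficient libraries did not overlap the controls for 12 members that were lower and 1 that was higher in pre-Baso, where 19.3% and 11.2% of all genes did so, and for 15 lower and 6 higher in basophils, where 21.4% and 17.2% did so. The extremes in pre-Baso were Atp6v1e1 at -0.60 ± 0.20 and Ctss at 0.45 ± 1.11. Atp6v1e1, the V1 peripheral stalk subunit gene, had 14.8 and 21.5 TPM in pre-Baso of controls, 12.5 and 10.4 in those of deficient mice, 13.8 and 14.2 in control basophils and 15.5 and 15.5 in deficient ones. Its log2 changes with maturation were -0.33 ± 0.20 in controls and 0.41 ± 0.20 in deficient mice. It had the only interaction among members at an unadjusted p under 0.05, 0.74 ± 0.28, with a limma adjusted p of 0.897.

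In basophils the members with an unadjusted p under 0.05 were Ctsd, Ctse, Npc2, Asah1 and Arsb, all genes that were called between the populations in controls. Ctsd was lower in deficient basophils, at 218 and 211 TPM against 279.6 and 291.5, a log2 difference of -0.41 ± 0.12 (limma adjusted p = 0.374). Npc2 was lower by a log2 difference of -0.46 ± 0.16 (adjusted p = 0.439), and Ctse and Asah1 by -0.47 ± 0.20 and -0.41 ± 0.17 (both adjusted p = 0.561). Arsb was higher, at 13.5 and 22.0 TPM against 12.6 and 10.2, a difference of 0.57 ± 0.24 (adjusted p = 0.561). Without both first basophil libraries the differences were 1.04 for Arsb, -0.21 for Ctse and -0.27 for Asah1 (adjusted p = 0.361, 0.935 and 0.893). For each of these 5 genes the deficient and control basophil libraries did not overlap, and none passed the adjustment over all genes. These contrasts use the same control basophil libraries as the change with maturation and are not independent of it. In pre-Baso the same 5 genes had log2 differences of -0.14 to -0.05.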

How the data were processed

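The 50 genes and all gene lists were chosen with earlier results of these data known. Libraries were prepared from total RNA with a SMARTER mRNA-Seq kit, per the labels' protocols. The aligner was HISAT2, whose version is not given in the sources used here, and the build mm10, per the submitters' processing notes. The authors quantified transcripts with StringTie 2.1.4 against Ensembl release 101 in its mode for annotated transcripts only, with no strand option, per the file headers. The deposited tables hold TPM, FPKM and mean coverage for 142699 transcripts, and other attributes, but no read counts, so no count model was used and counting intervals were not given.

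Gene TPM was summed over transcripts by gene identifier. The 12511 genes with at least 1 TPM in at least 2 libraries were fitted with limma 3.58.1 in R 4.3.3 on log2(TPM + 1), where changes of low genes are understated, with 1 mean for each of 4 groups, 8 libraries, 4 residual degrees of freedom and a variance trend. Each of 6 contrasts had its own Benjamini-Hochberg adjustment, and a gene was called under 0.05. The fit was tested on simulated data. All members may be named, and of each other pathway list up to 4 called genes with the smallest p, apart from those said to be named after their values were seen. Protein-coding genes took 18.7% to 22.4% of TPM and genes annotated as microRNA 57.4% to 62.8%, so rescaled values were among the alternatives, as were FPKM, other pseudocounts (0.1 and 5) and filters, other moderation, a replicate block and leaving out libraries. Promoters are from RefSeq (GRCm38.p6, the same assembly as mm10), and the longer stretches shown end at the annotated gene start. The duplicates are biological per the series' design text, and P-values measure the spread between them. Some results on other genes are not reported here.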

Additional observations from a re-analysis of the deposited data

How the results depend on the processing

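No called change of a member turned its direction under any alternative run, and 0 members were called between genotypes or in the interaction under all of them. In controls the count of 8 members called from pre-Baso to basophils was 13 after rescaling to protein-coding genes (27.1%, against 27% of all genes), 5 with no filter on low values, 5 with only the groups compared, 11 with a replicate block within each population and 4 without both first basophil libraries, the last 2 added after the data were seen. In deficient mice the count of 4 was 8 after rescaling to protein-coding genes (16.7%, against 16.3% of all genes), 8 with a replicate block within each population and 0 without both first basophil libraries. That block added Ctss, Lgmn, Psap and Cd68 in both genotypes and Ctsa in controls, and dropped Npc2 and Atp6ap2 in controls. Leaving out 1 library at a time gave 5 to 13 members in controls, with 5 without the first control pre-Baso or the first control basophil library and 13 without the second control basophil library. In deficient mice it gave 0 to 5, with 0, 1 and 2 without the first pre-Baso, the second pre-Baso and the first basophil library of those mice. The members' median change stayed between 0.14 and 0.45 in controls and between 0.23 and 0.38 in deficient mice when 1 library was left out, and that of the genotype difference between -0.20 and 0.04 in pre-Baso, -0.22 and 0.06 in basophils and -0.17 and 0.15 for the interaction. Leaving out libraries left a single library in some groups, so calls could be lost with little change in level. The causes were not tested.

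Over all genes, the 2832 calls in controls became 1516 with no filter and 1032 without both first basophil libraries, and 1397 to 2651 without 1 library. The 1363 calls in deficient mice became 298 with no filter, 562 with only the groups compared and 4 without both first basophil libraries, and 19 to 1237 without 1 library. Between genotypes, the 8 calls in pre-Baso became 23 with no filter, 3 with only the groups compared and 3 without both first basophil libraries, and 5 to 9 without 1 library. The 7 in basophils became 11 with FPKM, 16 with a pseudocount of 0.1, 18 with no filter and 4 with only the groups compared, and 6 to 17 without 1 library. The 11 for the mean over populations became 19 with a pseudocount of 0.1, 5 with no filter, 17 with a filter at 5 TPM, 19 with robust moderation and 7 with a replicate block, and 7 to 11 without 1 library. The interaction gave 0, then 2 with a pseudocount of 0.1 and 1 without both first basophil libraries, and 0 to 2 without 1 library.

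The replicate block left 7 members called in controls and 4 in deficient mice. The labels do not say whether same-numbered libraries share more than a number: over all genes their deviations from the group means correlated between -0.05 and 0.20, the highest value being that of the 2 basophil groups, where the deviations of the 48 members correlated at 0.80. The tables give no read counts, so depth beyond the assigned bases is unknown: Ctsl had as little as 0.058 kilobases assigned in a library and Ctsd at least 130.1, and levels of the lowest members are accordingly the least certain.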
